A study of Mus musculus with 8 samples.

Results

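H3K27-me3, the trimethyl mark that the Polycomb complex PRC2 places on lysine 27 of histone H3, was mapped by ChIP-seq in liver, and the regions described here are those found only after AAV-TBG-Cre in sequence far from protein-coding genes. They are regions of the AAV-Cre list on chromosomes 1 to 19 that overlapped no AAV-GFP region, overlapped no protein-coding gene body and lay more than 50 kb from every protein-coding start site (GENCODE M21, mm10). The rule selected 10428 regions that covered 8.22 Mb, and these were 17.7% of the 58951 autosomal AAV-Cre regions. Over all chromosomes the AAV-Cre list held 59267 regions and the AAV-GFP list 34586, or 93853 in both lists together. Because the rule itself used presence in one list and absence from the other, that contrast is a description and was not tested.

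All mice were male, of the C57BL/6 strain and JMJD3-floxed. Injection took place at 8 weeks of age, and livers were taken 12 weeks later, after a fast of 16 h. One group received AAV-TBG-Cre, in which a hepatocyte promoter drives the Cre recombinase that removes the floxed part of Kdm6b, the gene for the H3K27 demethylase JMJD3, and the control group received AAV-GFP and so carried the same floxed alleles with no Cre. Each group had 2 H3K27-me3 libraries and 2 input libraries, and the authors combined both H3K27-me3 libraries into 1 list of enriched regions per group, so there is no value per mouse and a difference between the viruses has no spread between mice to be judged by. The lists hold no measure of Kdm6b expression, so the deletion itself was not checked here. The paper reports from immunoblots that JMJD3 protein was downregulated in liver under this design. The labels name primary liver cells and the protocol minced liver, which also contains non-parenchymal cells in which this promoter is silent, and more marked cells cannot be told apart from more mark per cell.

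H3K27-me3 is known for keeping genes of embryonic patterning silent in adult tissues, where it covers their start sites and can spread over wide domains. JMJD3 removes the mark, and the study examined it in the response of liver to fasting. Intergenic sequence far from promoters holds many distal enhancers, and it also holds long noncoding RNA genes and gene-poor, AT-rich stretches.

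Most far intergenic regions of the AAV-Cre list had no counterpart in the AAV-GFP list. Of 12893 AAV-Cre regions that met the rule on position, 10428 (80.9%) overlapped no AAV-GFP region, and over all autosomal AAV-Cre regions this share was 75.9%. The 2465 far regions that did overlap one were wider and covered 4.95 Mb, against 8.22 Mb. The reverse class, AAV-GFP regions at such places that overlapped no AAV-Cre region, held 1610 regions. The lists differ in ways that bear on these counts. The AAV-Cre list was the longer, with 59267 regions against 34586. The shortest AAV-Cre-only region was 300 bp long and the shortest AAV-GFP-only region 120 bp, and 85.5% of the former against 13.4% of the latter passed a q-value of 0.05 within their own list. The part of peak calling in the counts was not tested. With the same number of strongest peaks in both lists 4849 regions remained in the class, and 6012 did when any AAV-GFP region within 10 kb removed a region.

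The sequences below are shown because they are the centres of the strongest signal, first in the region with the highest −log10 p of all and then in the strongest region of 4 of the clusters with the most regions, described further on. Each is 300 bases around the summit given by the authors' peak caller, from GRCm38 (mm10), plus strand, 5′ to 3′, with CpG dinucleotides in capitals. They are intergenic with respect to protein-coding genes.
Region by Cyp3a41a, chr5:145661946-145662245: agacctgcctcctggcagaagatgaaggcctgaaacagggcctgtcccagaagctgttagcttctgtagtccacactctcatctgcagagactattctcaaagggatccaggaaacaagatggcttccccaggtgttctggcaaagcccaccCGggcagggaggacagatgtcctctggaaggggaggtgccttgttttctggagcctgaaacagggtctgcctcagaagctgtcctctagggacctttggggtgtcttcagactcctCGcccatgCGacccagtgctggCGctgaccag
Uaca to Tle3, chr9:60969297-60969596: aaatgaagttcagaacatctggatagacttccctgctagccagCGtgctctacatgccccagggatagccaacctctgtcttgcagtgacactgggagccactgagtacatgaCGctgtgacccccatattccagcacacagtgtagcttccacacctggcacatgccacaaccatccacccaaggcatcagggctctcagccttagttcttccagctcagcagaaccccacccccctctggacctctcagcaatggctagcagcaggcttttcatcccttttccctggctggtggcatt
Prok2 to Rybp, chr6:100129566-100129865: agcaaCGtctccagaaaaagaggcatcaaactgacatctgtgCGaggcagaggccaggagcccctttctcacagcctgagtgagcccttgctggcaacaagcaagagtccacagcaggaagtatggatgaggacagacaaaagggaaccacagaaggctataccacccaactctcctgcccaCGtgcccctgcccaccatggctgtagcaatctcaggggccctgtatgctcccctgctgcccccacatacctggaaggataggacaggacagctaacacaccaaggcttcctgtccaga
Tle3 to Rplp1, chr9:61509533-61509832: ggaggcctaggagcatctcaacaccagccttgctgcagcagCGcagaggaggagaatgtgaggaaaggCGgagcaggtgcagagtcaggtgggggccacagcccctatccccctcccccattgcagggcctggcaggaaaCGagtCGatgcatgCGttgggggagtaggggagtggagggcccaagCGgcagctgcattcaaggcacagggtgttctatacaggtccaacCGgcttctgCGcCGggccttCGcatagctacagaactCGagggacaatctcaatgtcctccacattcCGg
Klf4 to Actl7b, chr4:55655914-55656213: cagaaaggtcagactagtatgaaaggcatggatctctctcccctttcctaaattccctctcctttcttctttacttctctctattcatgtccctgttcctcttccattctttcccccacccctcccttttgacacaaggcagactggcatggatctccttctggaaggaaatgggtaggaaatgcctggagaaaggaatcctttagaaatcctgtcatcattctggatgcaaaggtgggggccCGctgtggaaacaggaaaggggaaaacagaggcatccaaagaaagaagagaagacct

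The windows held between 1 CpG, in the one between Klf4 and Actl7b, and 12, in the one between Tle3 and Rplp1. Their GC content ran from 47.3% to 61.3%. In the window by Cyp3a41a 64.7% of bases were masked as repeats, and in the windows of the clusters between Uaca and Tle3 and between Prok2 and Rybp none were.

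The regions were short and of modest enrichment. Their median width was 622 bp, with quartiles at 444 and 947 bp, and the median fold enrichment over input was 2.73, with quartiles at 2.47 and 3.08. The median −log10 p was 4.21 and the highest 30.9. A q-value of 0.05 or lower was reached by 8920 regions (85.5%, Wilson 95% interval 84.9 to 86.2%), against 88.5% of all autosomal AAV-Cre regions. In these measures they resembled AAV-Cre-only regions nearer to genes. The 15950 intergenic regions up to 50 kb from a start site had a median width of 630 bp and a median fold of 2.73, and the 18346 regions in gene bodies 654 bp and 2.76. They stood apart from the 2465 AAV-Cre regions at equally remote places that did overlap an AAV-GFP region. Those had a median width of 1476 bp and a median fold of 3.78, and both medians were higher in all 19 autosomes. The presence of an AAV-GFP region was what separated these classes, and a wider region has more room to overlap one.

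**Figure D1:**
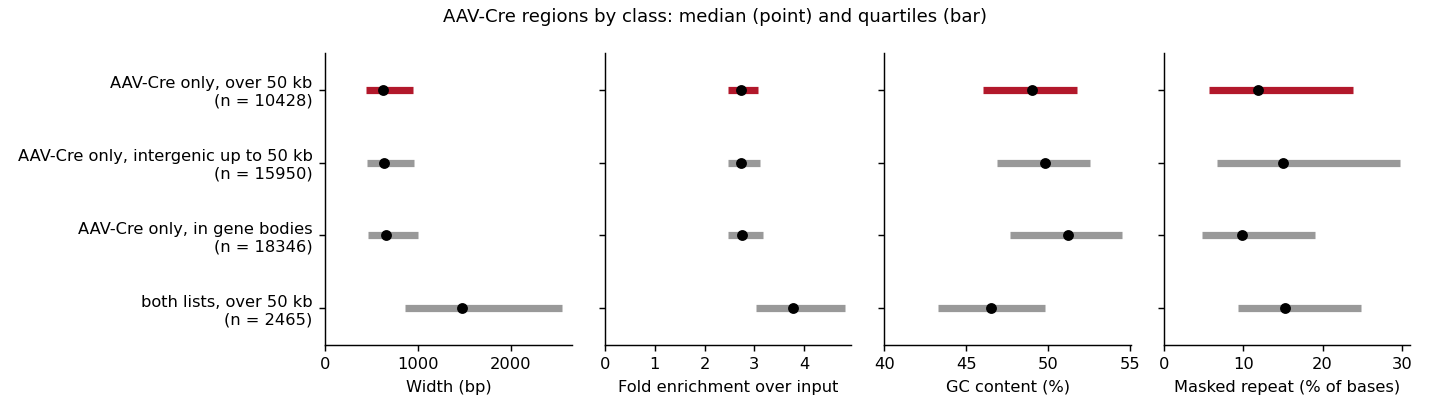
Width (bp), fold enrichment over input, GC content (%) and masked repeat share (% of bases) of AAV-Cre regions in 4 classes. Points are medians and bars run between the quartiles over regions. The AAV-Cre-only regions over 50 kb from start sites (red, 10428 regions) share width and fold with the other AAV-Cre-only classes, and the 2465 regions found in both lists are wider (median 1476 bp against 622 bp) and of lower GC content over their whole width (46.5% against 49.0%).

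Base composition, which the rule did not use, set the regions apart from far intergenic sequence as a whole. Their median GC content was 49.0%, whereas the median over 929692 tiles of 1000 bp of eligible sequence was 39.8%, and 4.61% of those tiles exceeded 49.0%. Eligible sequence here means autosomal sequence outside protein-coding genes and more than 50 kb from their start sites, which came to 995 Mb or 40.4% of the autosomes. CpG dinucleotides numbered 1.14 per 100 bases in the median region and 0.5 in the median tile. Masked repeats filled 11.9% of the median region and 27.7% of the median tile. Sequence directly beside the regions was not measured. Among AAV-Cre-only regions, GC content fell with remoteness from genes. It was 51.2% in gene bodies, 49.8% in intergenic sequence up to 50 kb and 49.0% beyond, and the far regions had the lower median in 19 and 17 of 19 autosomes. Far regions shared by both lists had 46.5%, lower in 19 of 19 autosomes, but over 300 bases at the summit the median was 50.3% in both classes.

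Within intergenic sequence, density fell with distance from start sites. The regions lay at 10.5 per Mb of eligible sequence, against 33.5 AAV-Cre-only regions per Mb of intergenic sequence nearer to start sites and 18.5 per Mb in gene bodies. Within eligible sequence the density was 22.8 per Mb at 50 to 100 kb from a start site, 7.81 at 200 to 500 kb and 0.335 beyond 1000 kb. The median distance was 117526 bp. The most remote region lay 2194623 bp from the start site of Pik3c3, which encodes a lipid kinase of autophagy, on chromosome 18 (28077658 to 28078124). Chromosome 9 had the highest density, 18.2 per Mb, and chromosome 14 the lowest, 5.82 per Mb.

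Regions close to the 50 kb limit of the rule had similar values on either side. The 5 regions just inside lay 50025 to 50049 bp from the start sites of Lgi2, Il1b, Ttc9, Plxnc1 and Adpgk, with folds of 2.95, 3.17, 2.16, 3.38 and 2.54. The 5 just outside lay 49978 to 49997 bp from those of Frmd6, Pla2g2c, Myl10, Pced1b and Spsb1, with folds of 2.45, 2.60, 3.21, 2.69 and 2.82.

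The intergenic gaps between neighbouring protein-coding genes were unequally filled. Of 3492 gaps with eligible sequence, 1506 (43.1%) held at least 1 region, and 1986 gaps with 417 Mb of eligible sequence held none. A set of 175 gaps, with 9.50% of eligible sequence, held 50% of the regions. Large gaps were poor in them. In 242 gaps with at least 1 Mb of eligible sequence the density was 2.92 per Mb, and 101 of these gaps had no region. When the gaps were divided by GC content into 5 classes of 693 gaps each, the density rose through all 5, from 1.93 per Mb below 39.4% GC to 7.25, 13.9, 24.4 and 60.5 per Mb above 45.5% GC.

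The regions gathered around the regions of the control list. The median distance to the nearest AAV-GFP region was 15554 bp, with quartiles at 3253 and 68198 bp. Within 5 kb of an AAV-GFP region lay 3154 regions (30.2%) in 3.05% of eligible sequence, a density of 104 per Mb. The density was 57.1 per Mb at 5 to 10 kb, 23.0 at 10 to 50 kb and 0.927 beyond 500 kb. The decline was present in each of the 5 GC classes of gaps. Under 10 kb from an AAV-GFP region the density was 36.6 per Mb in the class with the lowest GC content and 145 in that with the highest, and over 100 kb away it was 0.618 and 23.0 per Mb. Regions at the border of a domain called in both groups are included in these counts, and a broad domain called as narrow peaks is split into several regions.

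**Figure D2:**
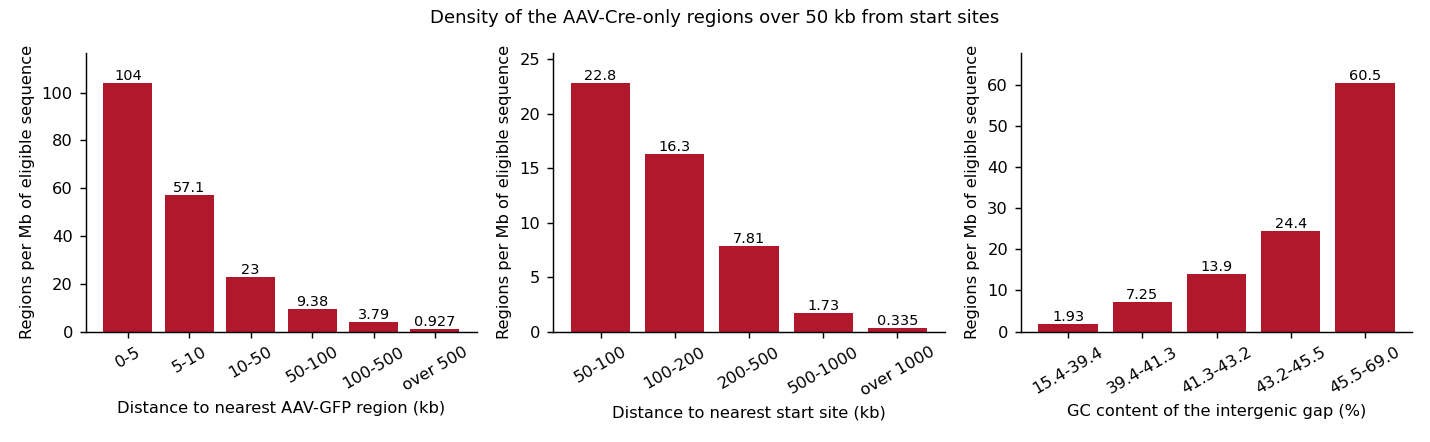
Number of regions per Mb of eligible sequence by distance to the nearest AAV-GFP region (kb), by distance to the nearest protein-coding start site (kb) and by the GC content of the intergenic gap (%, 5 classes with equal numbers of gaps). Bars start at 0 and carry their values, and the density falls from 104 to 0.927 per Mb with distance from AAV-GFP regions, falls from 22.8 to 0.335 per Mb with distance from start sites and rises from 1.93 to 60.5 per Mb with GC content.

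Clustering was examined by chaining regions that lay at most 50 kb apart, and a chain of at least 5 regions was called a cluster. The median distance to the nearest other region was 1225 bp. For 4769 regions (45.7%) it was at most 1 kb, and for 9579 (91.9%) at most 50 kb. The chains numbered 2229, of which 849 were single regions, and 590 were clusters. The clusters held 7435 regions (71.3%, interval 70.4 to 72.2%) in spans that summed to 48.0 Mb, or 4.83% of eligible sequence. A median cluster held 8 regions over 60.5 kb, and the longest spanned 447 kb. In 88 clusters there were at least 20 regions, and in 12 at least 50. Since a gene between neighbouring regions would put one of them within 50 kb of its start site, each cluster lies in a single intergenic gap. Peaks of each list joined within 1 kb before the rule was applied gave 6290 regions, and 50.8% of them fell into 335 clusters. A region joined to a peak that fails the rule drops out, so this count mixes merging with removal.

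**Figure D3:**
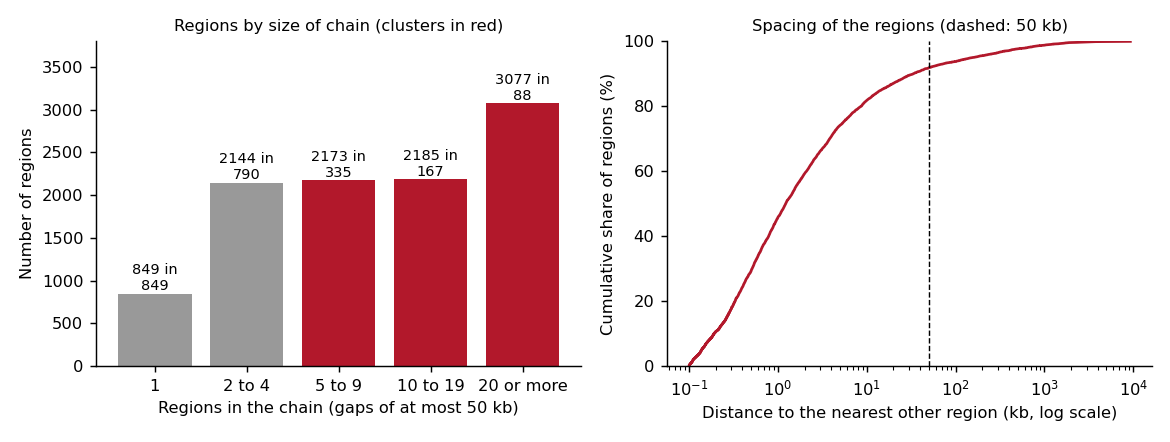
Left, number of AAV-Cre-only regions over 50 kb from start sites by the number of regions in their chain, with the number of regions and of chains over each bar. Right, cumulative share of regions (%) by distance to the nearest other region (kb, log scale). The 590 clusters (red) hold 7435 of 10428 regions, and the curve reaches 91.9% at 50 kb (dashed line).

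Regions in larger chains lay closer to AAV-GFP regions and were slightly wider, with lower GC and CpG content. The median distance to an AAV-GFP region was 90344 bp for single regions, 47124 bp in chains of 2 to 4 and 8563 bp in clusters of 20 or more. Median width rose from 530 to 674 bp over the same classes, while the fold moved from 2.64 to 2.77, the GC content from 49.9% to 48.9% and CpG from 1.3 to 1.06 per 100 bases. Of all clusters, 394 (66.8%) had an AAV-GFP region inside their span, and among the 88 with at least 20 regions 86 did. Clusters with more regions also tended to be longer, which leaves more room for an AAV-GFP region, and no rate per kb was computed.

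The 12 clusters with the most regions together held 801 regions. The cluster with the most lay between Uaca, which encodes a regulator of stress-induced apoptosis, and Tle3, a Groucho-family corepressor. It had 111 regions over 423 kb (chr9:60890616-61313691), with a median fold of 2.84 and a highest −log10 p of 18. The 56 AAV-GFP regions in its span covered 3.67% of it. The span also held 26 other AAV-Cre regions, which overlap AAV-GFP regions. The 111 regions covered 25.1% of the span, and all AAV-Cre regions together 42.1%, so much of the marked sequence lay in shared regions. On the other side of Tle3, between that gene and Rplp1, which encodes a ribosomal protein, lay a cluster of 81 regions over 432 kb (chr9:61425119-61857252) with 15 AAV-GFP regions. Tle3 thus had 192 clustered regions on its sides, the highest number of any gene. Within 15 kb of its start sites both lists had a region, and within 1 kb the AAV-Cre list had one and the AAV-GFP list had none.

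Rybp, which encodes a component of variant Polycomb complexes, was flanked in the same way. Between Prok2, a gene for a secreted signalling peptide, and Rybp lay 86 regions over 435 kb (chr6:99788437-100223780), with the highest −log10 p at 18.9 and 55 AAV-GFP regions. Between Rybp and Shq1, which acts in the assembly of ribonucleoproteins, there were 55 regions over 214 kb (chr6:100338456-100552938), with 3 AAV-GFP regions. Rybp itself had a region within 1 kb of a start site only in the AAV-Cre list. Its 2 clusters held 141 regions.

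Clusters beside developmental transcription factors came next. Between Sall1, a zinc-finger factor of kidney and limb development, and Tox3, an HMG-box factor, 77 regions spanned 257 kb (chr8:89107817-89364625) with a median fold of 2.77, and 3 AAV-GFP regions covered 0.229% of that span. A further cluster of 37 regions over 205 kb in the same gap held 51 AAV-GFP regions, so neighbouring clusters of 1 gap differed in how much of the control mark they held. Between Klf4, a zinc-finger factor of epithelial differentiation and pluripotency, and Actl7b, a testis actin-like gene, 75 regions spanned 382 kb (chr4:55588636-55970846) with 42 AAV-GFP regions. Here the highest −log10 p was 6.97, the lowest such maximum of the 12 clusters. The cluster between Pax1, a factor of skeletal and thymus development, and Foxa2, a pioneer factor of liver and other endoderm, had 57 regions and was the longest at 447 kb (chr2:147431804-147878933). Pax1 had a region at its start site in both lists, and Foxa2 had one within 15 kb only in AAV-Cre and none within 1 kb in either list.

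Of the other 5 clusters, one of 55 regions lay between Gm9817, a predicted gene, and Mylip, which encodes a ubiquitin ligase of the LDL receptor (chr13:45130060-45335910). It was the most marked in the control list, with 80 AAV-GFP regions over 16.6% of its span. The 55 regions covered 21.2% of the span and all AAV-Cre regions, with 33 others, 62.3%. Most of its marked sequence in AAV-Cre thus lay in regions shared with the control list. The cluster of 52 regions between Pard3, a gene of cell polarity, and Nrp1, a coreceptor of semaphorins and VEGF, spanned 383 kb (chr8:127909135-128291637), and neither gene had a region within 15 kb of a start site in either list. The 51 regions between Gm5447 and A530084C06Rik, genes known by these clone or model names, formed the cluster with the most regions that held no AAV-GFP region (chr13:31194590-31503488, 309 kb). Both of these flanking genes had regions of both lists within 15 kb of a start site. Between Dysf, a gene of muscle membrane repair, and Cyp26b1, which encodes an enzyme that degrades retinoic acid, 50 regions spanned 318 kb (chr6:84211213-84528893) with 4 AAV-GFP regions.

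One of the 12 clusters followed a noncoding gene. All 51 regions between Bcl2l11, which encodes the apoptosis activator BIM, and Spdye4c (chr2:128182011-128437726, 256 kb) lay over the long noncoding RNA gene Gm14005, also called Morrbid and known as a regulator of Bcl2l11 in myeloid cells. Bcl2l11 had a region within 1 kb of a start site only in the AAV-Cre list, and the 13 AAV-GFP regions in the span covered 1.23% of it. In the other 11 clusters no noncoding gene overlapped most of the regions. Over all 10428 regions, 1728 (16.6%) overlapped a long noncoding RNA gene, while such genes covered 10.0% of eligible sequence, and 312 (2.99%) lay within 1 kb of the start of one.

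**Figure D4:**
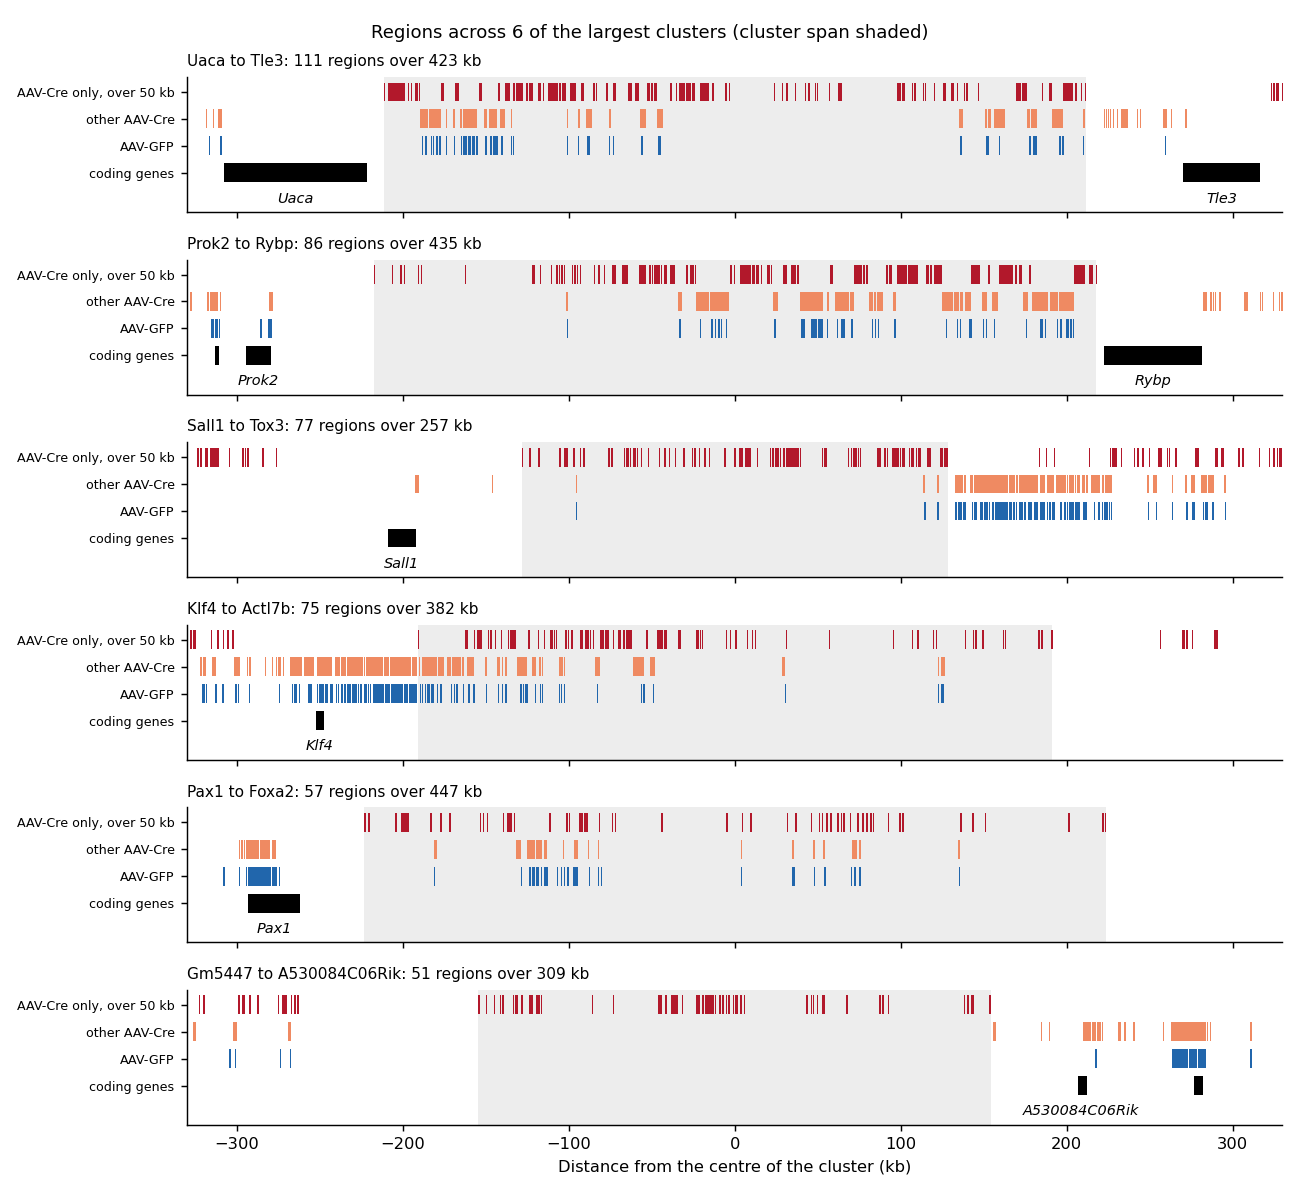
Regions across 6 of the 12 clusters with the most regions, by distance from the centre of the cluster (kb), with the cluster span shaded. Rows show the AAV-Cre-only regions over 50 kb from start sites (red), other AAV-Cre regions (orange), AAV-GFP regions (blue) and protein-coding gene bodies (black), with flanking genes named where they fall inside the window. AAV-GFP regions run through the span between Uaca and Tle3 (56) and between Klf4 and Actl7b (42), are few between Sall1 and Tox3 (3) and are missing between Gm5447 and A530084C06Rik.

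The protein-coding genes that flank the clusters, taken as the nearest gene body on each side, numbered 972. A gene was called marked in a list when a region of that list lay within 15 kb of one of its start sites, the window used by the study, which can also count the mark of a close neighbour. Marked in both lists were 447 flanking genes (46.0%, interval 42.9 to 49.1%), against 1782 of 5422 genes that border a gap with eligible sequence (32.9%, interval 31.6 to 34.1%) and 697 of 2760 that border only gaps with no region (25.3%, interval 23.7 to 26.9%). Marked only in AAV-Cre were 152 (15.6%, interval 13.5 to 18.1%), near the 15.3% of all 20720 autosomal genes. Neither list marked 364 (37.4%). Within 1 kb of start sites, 351 flanking genes (36.1%) were marked in both lists and 90 (9.26%) only in AAV-Cre. By cluster, 419 of 590 (71.0%) had at least 1 flanking gene marked in both lists, and 78 (13.2%) had both flanking genes marked in neither. A cluster counts here when the gene on either side is marked, which tends to raise this share above that by gene. Gaps without a cluster were not counted in this way, so the share has no background.

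Genes of embryonic patterning were frequent among them. Developmental transcription factors were 69 of the 972 flanking genes (7.10%), 141 of 5426 genes that border a gap with eligible sequence (2.60%) and 0.868% of those that border only gaps with no region. They flanked 87 clusters with 1339 regions, or 18% of the clustered regions. Morphogens and their antagonists were 19 flanking genes (1.95%, against 0.792% of bordering genes), with 336 regions in 23 clusters. The lists were chosen with results of these data known, so these shares are descriptions. Of the 69 factors, 63 were marked in both lists within 15 kb of a start site, and 61 within 1 kb. Over all autosomal genes these shares were 27.7% and 16.8%. The share among listed factors that flank no cluster was not computed, so this is not shown to be particular to the flanks.

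Sall1 led them with 132 regions in 3 clusters, followed by Klf4 with 108 in 4 clusters, Runx1, a factor of blood formation, with 70 in 3, Irx3 with 67 in 2, Gli2, an effector of Hedgehog signalling, with 66 in 3, Pax1 with 63 in 2, Sox4 with 62 in 3, Foxa2 with 57 in 1 and Sox9, a factor of cartilage, testis and bile duct, with 53 in 2. The 45 regions between Irx3 and Irx5 lay inside a gap whose flanking genes were both marked in both lists. Other homeobox genes beside clusters were Barhl2, Barx1, Dlx2, Dlx6, En1, Evx1, Gsc, Hmx1, Hoxc13, Irx1, Irx2, Irx4, Lhx1, Lhx2, Lhx5, Lmx1b, Msx1, Nkx2-1, Nkx2-2, Nkx6-1, Onecut1, Otx2, Pitx1, Pou3f2, Six2, Uncx and Zeb2. Of these, Six2 had 33 regions, Lhx1 32 and Lhx5 26.

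Further flanking factors were the paired-box genes Pax2, Pax3 and Pax7, the Sox genes Sox1, Sox2, Sox5, Sox6 and Sox17, the T-box genes Tbx3, Tbx4, Tbx5 and Tbx18, and the forkhead genes Foxd1, Foxe1 and Foxp2. The basic helix-loop-helix genes Hand1, Olig3, Tcf21 and Twist2 were also among them, as were the zinc-finger genes Bcl11a, Gata4, Gata6, Gli3, Sall3, Tshz1 and Tshz3, and Ebf2, Ebf3, Esrrg and Tfap2c. Their clusters ranged from a single one of 5 regions, as at Gli3, to 3 clusters with 40 regions at Tbx3.

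A few of the factors were not marked in both lists. Within 15 kb of a start site, Foxa2, Onecut1 and Sall1 were marked only in AAV-Cre, and Gata6, Sox5 and Tshz1 in neither list. Within 1 kb, 6 were marked in neither list, and these were Foxa2, Gata4, Gata6, Onecut1, Sox5 and Tshz1, of which Gata4 was marked in both lists within 15 kb. Foxa2, Gata4, Gata6 and Onecut1 encode factors of liver development and hepatocyte identity. Onecut1 had 10 regions in 2 clusters, Gata4 10 regions in 1 and Gata6 10 in 1.

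Among morphogens and antagonists the highest numbers were at Inhbb, a subunit of inhibins and activins, with 61 regions in 2 clusters, Dll1, a Notch ligand, with 46, Bmp2 with 45 in 2 and Bmp7 with 34. The cluster beside Bmp7 is the one that Tfap2c flanks on its other side, and the 61 regions of the Inhbb count all lay between Gli2 and Inhbb. The others were Bmp4, Fgf9, Fgfr2, Igf1, Igf2, Inhba, Nog, Ptch1, Rspo2, Sfrp1, Shh, Tgfb2, Wnt4, Wnt7a and Wnt11. Igf1, the growth factor that liver secretes, and Inhba were marked in neither list.

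Few hepatocyte genes lay beside the clusters, 3 of 972, and few bordered eligible sequence at all, 12 of 5426. These shares were 0.309% and 0.221%. Arg1 of the urea cycle flanked a cluster of 8 regions at a distance of 185 kb, and Bhmt of methionine metabolism one of 7 at 31.1 kb. As a check of the tissue, none of 49 autosomal hepatocyte genes had a region within 1 kb of a start site in either list, and within 15 kb 4 did in AAV-Cre and 2 in AAV-GFP. Over all 20720 autosomal genes, 16.8% were marked in both lists and 7.81% only in AAV-Cre within 1 kb, and 27.7% and 15.3% within 15 kb.

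By the gene with the nearest start site, eligible sequence nearest to developmental transcription factors held 1088 regions at 27.7 per Mb, 10.4% of the regions in 3.95% of the sequence. Sequence nearest to morphogens and antagonists held 240 at 28.9 per Mb. A few loci held many of these regions. Of the 1088, 131 were nearest to Sall1, 94 to Klf4 and 50 to Irx3, and of the 240, 45 were nearest to Bmp2 and 37 to Inhbb. Both densities exceeded those of all eligible sequence in each of the 5 GC classes of gaps, with 3.02 against 1.93 per Mb for the factors in the lowest class and 83.0 against 60.5 in the highest. In the 90.4 Mb nearest to neuronal adhesion and guidance genes, many of which border wide gaps, the density was 3.04 per Mb. Of that sequence 82.4 Mb lay in the lowest GC class, at 0.983 per Mb against 1.93 over all sequence of that class. In the other 4 classes, from low to high GC content, the density was 20.3, 25.9, 21.2 and 34.4 per Mb against 7.25, 13.9, 24.4 and 60.5, so it was above that of all sequence in 2 of the 5 classes and below it in 3. Cytochrome P450 genes had 26.3 per Mb over 2.09 Mb with 55 regions, of which 35 were nearest to Cyp26b1. Autophagy genes, the subject of the study, had 39 regions at 8.49 per Mb, and vomeronasal receptor genes 11 at 1.06 per Mb. Sequence nearest to genes marked in both lists held 13.6 regions per Mb, to genes marked only in AAV-Cre 16.7 and to genes marked in neither 7.24. For genes marked only in AAV-GFP it was 1.90 per Mb, with 47 regions in 24.8 Mb. These states were read from the same lists as the regions, and this split was not made by GC class.

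**Figure D5:**
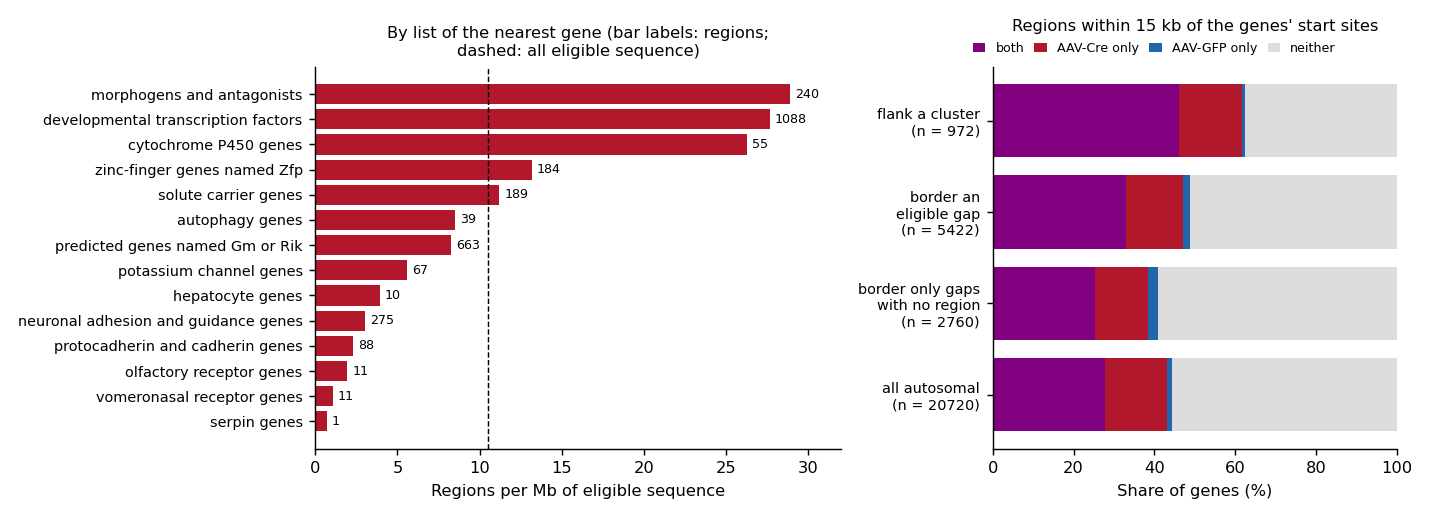
Left, regions per Mb of eligible sequence by the list of the nearest gene, for lists with at least 1 Mb, with the number of regions beside each bar and the density over all eligible sequence (10.5 per Mb) as a dashed line. Right, share of genes (%) with a region within 15 kb of a start site in both lists, only AAV-Cre, only AAV-GFP or neither, for 4 sets of genes. Developmental transcription factors (27.7 per Mb) and morphogens (28.9) lie far above the line, and genes that flank a cluster are more often marked in both lists (46.0%) than all autosomal genes (27.7%).

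The strongest single regions were not those of the clusters with the most regions. The highest −log10 p, 30.9 at a fold of 6.36, belonged to a region of 3133 bp between Cyp3a41b and Cyp3a41a (chr5:145661162-145664294), 1185 bp from an AAV-GFP region and with 53.4% of its bases masked as repeats. These genes are near-identical copies, so reads there could be shared between them. The next lay 58466 bp from Gdi2 (chr13:3477958-3479597), a single region with 3.72 CpG per 100 bases and a fold of 7.35, and in a cluster between Runx1 and Setd4 (chr16:93308479-93309605), also at a fold of 7.35. The fourth lay among the major urinary protein genes, near Mup5 (chr4:61909890-61913382, fold 7.0, 44.4% masked), another family of near-identical copies. The others of the 10 lay nearest to Lhx5, Klf10, Dpyd, Topaz1, Gm6657 and Galr1, with folds of 6.09 to 6.95. Of these, the regions near Klf10 and Dpyd were 134908 and 115167 bp from any AAV-GFP region, and those near Gm6657 and Galr1 were 933 and 420 bp from one. The regions near Gm6657 and Galr1 had a −log10 p of 20.6, a value shared by regions outside the 10. It was also the maximum of the cluster between Hif1an and Pax2 and of a cluster of 5 regions between Klf4 and Actl7b.

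The widest regions lay in other places. The one between Irs2, an adaptor of insulin signalling, and Col4a1, a basement-membrane collagen, was 7952 bp wide (chr8:11112178-11120129) with a fold of 4.17, in a cluster of 35 regions. The next were 5956 bp near Tcerg1l, 5327 bp near Fam53a, 5258 bp near Uaca and 5203 bp near Rybp, the last pair inside clusters described above. Their folds ran from 3.57 to 4.73, below those of the 10 strongest regions.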

How the data were processed

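H3K27-me3 ChIP-seq of livers of AAV-Cre and AAV-GFP mice was used as 2 deposited peak lists, each made by the authors from 2 libraries, with groups taken from the labels. The authors processed reads with the AQUAS pipeline (BWA 0.7.13, SAMtools 1.2, Picard 1.126, per the submitters' processing notes), called peaks with MACS on mm10 against pooled input and kept peaks that overlapped across replicates. The deposited lists give each peak's position, summit, fold enrichment (a ratio over input), −log10 p-value and −log10 q-value. They hold no read counts, so depth is unknown. The deposited display score was not used.

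Overlap needed at least 1 bp. Genes and basic protein-coding start sites came from GENCODE M21, and sequence and repeat masking from GRCm38. Since there is 1 list per group, classes were described by medians, shares with Wilson 95% intervals that cover counting error only, and the number of autosomes on the same side, with no test. Gap GC content was the share of G and C among the sequenced bases of a gap's eligible sequence, and gaps were divided into 5 classes of 693. Tiles of 1000 bp gave the composition of eligible sequence and its length by distance and by nearest gene. The members and gene lists were chosen with earlier results of these data known. Named are the 12 clusters with the most regions, the 10 regions with the highest −log10 p, the 5 widest, 5 on each side of the 50 kb limit and the developmental and hepatocyte genes that flank a cluster. Some items that this rule selects are not reported here. No sequence from chromosome 18 was printed. Alternatives are given in the closing section. Interval functions were tested on simulated data, where 100% of results on 1707 regions equalled a direct search. Python 3.11.15, numpy 2.4.6, pandas 2.3.3 and scipy 1.17.1 were used.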

Additional observations from a re-analysis of the deposited data

How the results depend on the processing

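Counts of regions and of clusters stayed within 1.5 times 10428 and 590 with q-value thresholds of 0.05 and 0.01, with AAV-GFP peaks within 1 kb excluded, with start sites of all transcripts and without regions that are mostly repeats, and the count of clusters also with gaps of 20 or 100 kb. The number of regions, the number of clusters and the share of regions in clusters were 4849, 269 and 52.9% with the same number of strongest peaks, 3680, 189 and 46.7% with −log10 p of at least 5, 6012, 341 and 53.8% with no AAV-GFP peak within 10 kb, 6290, 335 and 50.8% with peaks joined within 1 kb, 2805, 162 and 62.8% against all annotated genes, and 6120, 336 and 72.8% beyond 100 kb. Fewer regions are left by construction in each of these. Beyond 20 kb there were 16728 regions and 991 clusters. The share in clusters was 68.0% at a q-value of 0.01, 68.5% with no AAV-GFP peak within 1 kb, 69.8% for regions under 0.5 masked, and 59.1% and 77.0% with gaps of at most 20 and 100 kb. With at least 3 regions a cluster, 983 clusters held 84.2%, and with at least 10, 255 held 50.5%.

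At a q-value of 0.05, the median width was 696 bp, the fold 2.86, the −log10 p 4.50, the GC content 48.8% and the repeat share 12.4%. This threshold in both lists gave 10242 regions, some of which overlap only AAV-GFP peaks that miss it. Beyond 100 kb, GC content was 48.4%, CpG 1.07 per 100 bases and the repeat share 11.4%. Over 300 bases at the summit they were 50.3%, 1 and 8.67%. In sequenced bases without the first 3 Mb, the density was 11.2 per Mb. Flanking genes marked in both lists were 36.1% within 1 kb, 60.7% within 50 kb and 39.4% at a q-value of 0.05, and those marked only in AAV-Cre 9.26% within 1 kb and 20.9% at that q-value. Causes of these shifts were not tested beyond what each setting does by construction. No paired analysis was possible because the lists carry no value per replicate. Leave-one-out values per mouse were not run, since the lists hold none. Depth is unknown, so a region missing from the AAV-GFP list is one that was not called there, not one shown to lack the mark.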

Other observations

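On the X chromosome, which the rule leaves out, the same position rule found 56 AAV-Cre-only regions, or 0.648 per Mb of 86.5 Mb of eligible sequence, against 10.5 per Mb on the autosomes. Their median width was 602 bp and their median GC content 51.7%, and 27 of them lay in 2 clusters. The AAV-GFP list had 2 regions on the X chromosome by the reverse rule. In all, the X chromosome held 315 AAV-Cre regions, against 58951 on the autosomes, and 278 AAV-GFP regions. The low density there was thus not particular to AAV-Cre-only regions far from genes.

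The reverse class on the autosomes, AAV-GFP regions far from genes that overlapped no AAV-Cre region, held 1610 regions at 1.62 per Mb. Their median width was 157 bp and their median GC content 43.5%, and 36.6% of them held no CpG. They formed 28 clusters with 238 regions. The cluster with the most, 38 regions over 91.6 kb, lay between Prl2c3 and Prl2c2, genes of a multicopy family of placental prolactin-like hormones on chromosome 13. Others were 29 regions over 40.4 kb before Olfr161, the first protein-coding gene of chromosome 16, and 17 regions over 77.6 kb between Adam6a and Zfp386 on chromosome 12. The loci were named after their values were seen, and the part of copy number or read mapping in them was not tested.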
